A study of Mus musculus with 10 samples.

Results

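The 133 genes described here carry a Zfp symbol followed by a number and encode zinc finger proteins of many kinds. They were selected on their level in untreated cells: of 320 coding transcripts with such a symbol, Zfp42 left out because it is a stem cell marker gene, those with a mean of at least 100 normalized footprints on the open reading frame (ORF) in the control libraries were kept. The files list 14195 coding transcripts in all, of which 8405 pass the same level. Just inside the cutoff lay Zfp703 at 100.6, Zfp945 at 103.3 and Zfp41 at 104.4, and just outside lay Zfp189 at 98.3, Zfp688 at 96.3 and Zfp53 at 96.0. The other 187 Zfp-numbered transcripts were below it.

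All libraries came from CGR8, an established line of mouse embryonic stem cells grown on gelatin with LIF and no feeder layer. Ribosome protected RNA fragments (footprints) were sequenced from untreated control cells, and from cells given 1 µM DMDA-PatA for 10 min, 2 µg/ml harringtonine for 10 min or 0.2 mg/ml puromycin for 20 min. DMDA-PatA is a pateamine A analog that targets the initiation factor eIF4A. Harringtonine is an elongation inhibitor that stops ribosomes in part, but not only, at start codons, and puromycin releases the growing chain. There were 2 libraries per condition, and 2 transcriptome libraries of untreated cells. RNA of the drug treated cells was not measured, so that in every drug comparison less RNA and fewer ribosomes per RNA cannot be told apart. The study's methods call the replicates biological without describing them further, and p-values measure the spread between these libraries only.

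C2H2 zinc finger genes form the largest family of DNA binding proteins in mammals. Each finger folds around a zinc ion and contacts a few bases, and neighbouring fingers are joined by a short conserved linker. Many members carry a KRAB domain, which recruits the co-repressor Trim28 and silences retroelements and imprinted regions in embryonic stem cells, while other genes with the same name stem bind RNA, ribosomes or other proteins.

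Depth bounded the precision of each comparison. The control libraries held 60832 and 69644 reads on the ORFs of these genes, DMDA-PatA 3387 and 3782, harringtonine 8876 and 7394, and puromycin 5815 and 9742. The median gene had 229 and 245 control reads but 19 and 18 reads with DMDA-PatA, and read numbers cover counting error only. All 10 stem cell markers checked were expressed, with control ORF values from 221 to 12115 and Pou5f1 at 5581. The 7 markers of differentiated cells lay between 4.49 and 636. The 5 fibroblast markers, which feeder cells would also express, were not near 0: they ran from 129 for Thy1 to 14942 for Col1a1, a collagen chain, and their summed value was 23124 and 17339 in the control libraries. The part of other cells in the levels below was not tested, and in such bulk samples fewer cells of a type and less RNA per cell cannot be told apart.

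The genes shared sequence features that the rule did not use. For 131 of them the listed ORF could be matched to the GENCODE M21 transcript, and 125 of these held at least 1 C2H2 pattern, with a median of 9 fingers and a maximum of 33 in Zfp462, a chromatin regulator. A KRAB-like pattern before the fingers was found in 47 genes, a further 52 had 5 or more fingers without it, and 32 had under 5 fingers. Zfp143 and Zfp598 could not be matched. Genes on chromosome 7 made up 36 of the 133 (27.1%), against 6.61% of the 8272 other coding transcripts past the cutoff. The median ORF length was 1812 nt against 1428 nt, and the median GC content of the ORF was 45.4% in the KRAB genes, 54.3% in the other genes with many fingers and 52.9% in the other coding transcripts.

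A finger linker is shown because it recurs within and between many of these genes, and because reads that match several places were left out by the authors. The exact linker pattern was not found in all genes: it had a median of 2 copies and a minimum of 0, and a median of 0 in the genes with under 5 fingers. The first linker of 2 genes with many fingers is given 5′ to 3′ with the bases that encode the linker in capitals, from GENCODE M21 on GRCm38. Zfp990 lies on the plus strand of chromosome 4 at chr4:145537382-145537408, and Zfp37 on the minus strand at chr4:62192097-62192123, each in the coding sequence.
Zfp990: attcatACAGGAGAGAAACCGtacaaa
Zfp37: actcacACTGGGGAGAAACCAtatgaa
Despite this likeness most of the coding sequence was unique at read length. The median share of 30 base ORF windows that occur more than once in the genome was 0.157%, and 26 of 131 genes exceeded 5%. Zfp990 stood highest at 65.4%, followed among the genes named here by Zfp979 at 45.4% and Zfp330 at 42.1%, and their counts are uncertain for this reason. Zfp37 had none.

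In untreated cells the spread between the genes was wide. Per kb of ORF, the normalized control footprints had a median of 151, against 348 for the other coding transcripts past the cutoff, and ranged from 40.6 to 3784. Since this level was used for the choice, it is a description with no test. Zfp207, a spindle assembly protein, led with 3749 and 3720 footprints in the control libraries, 3784 per kb. It was followed by Zfp57, which keeps imprinted regions methylated, at 1835 per kb, by Zfp622, a factor of large ribosomal subunit maturation, at 1391, by the stem cell factor Zfp296 at 1130 and by Zfp428 at 1124.

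**Figure D1:**
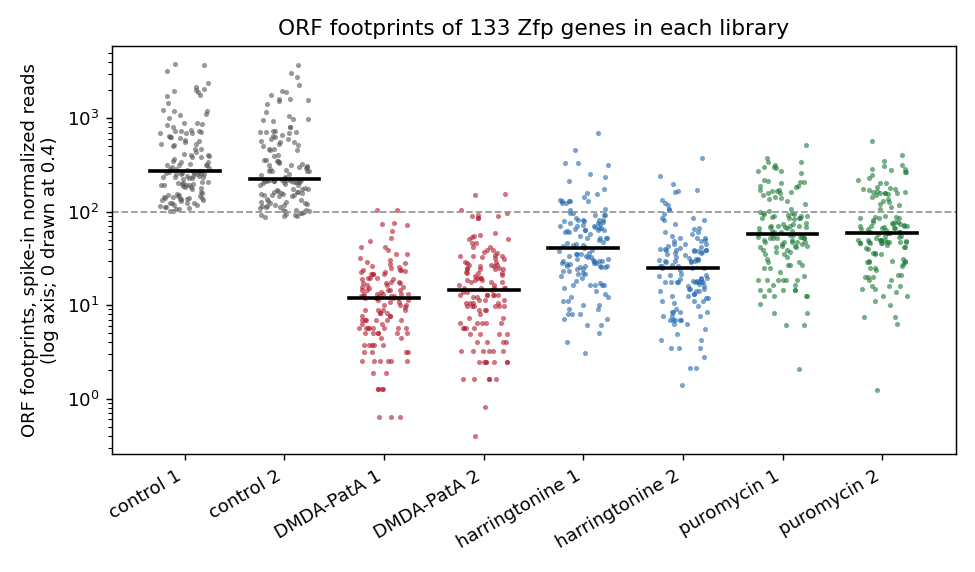
Normalized ORF footprints of the 133 genes in each ribosome profiling library (1 point per gene, log axis, a value of 0 drawn at 0.4), with the median of each library as a black bar and the cutoff of 100 as a dashed line. The medians fall from 270.0 and 222 in control cells to 57.9 and 59.7 after puromycin, 40.6 and 25.2 after harringtonine and 11.99 and 14.6 after DMDA-PatA.

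The translation efficiency, here the share of control ORF footprints divided by the share of transcriptome ORF reads, was low for most of the genes. Its median was 0.746, with values of 0.745 and 0.725 from the replicate pairs, and it was below 1 for 96 of 133 genes (72.2%). In the other coding transcripts past the cutoff the median was 1.03 and 48.6% were below 1. Low values were not particular to these genes. Among other zinc finger families past the cutoff the median was 0.626 for Zfp genes with a letter after the number (81.8% below 1). It was 0.678 for Zbtb (81.0%), 0.735 for Zscan and Zkscan (72.7%), 0.819 for Zc3h and Zcchc (60%) and 1.28 for Klf (38.5%). The control footprints in this ratio also chose the genes, so it is a description with no test. Genes with 5 or more fingers and no KRAB had the lowest median, 0.549, followed by KRAB genes at 0.788 and genes with under 5 fingers at 0.938. Zfp646 and Zfp945 had the lowest values, both 0.25, and Zfp296 the highest, 3.31, with 2.83 and 3.92 in the replicate pairs. It was followed by the ribosome linked gene Zfp593 at 2.60, by Zfp459 at 2.41 and by Zfp622 at 2.33.

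**Figure D2:**
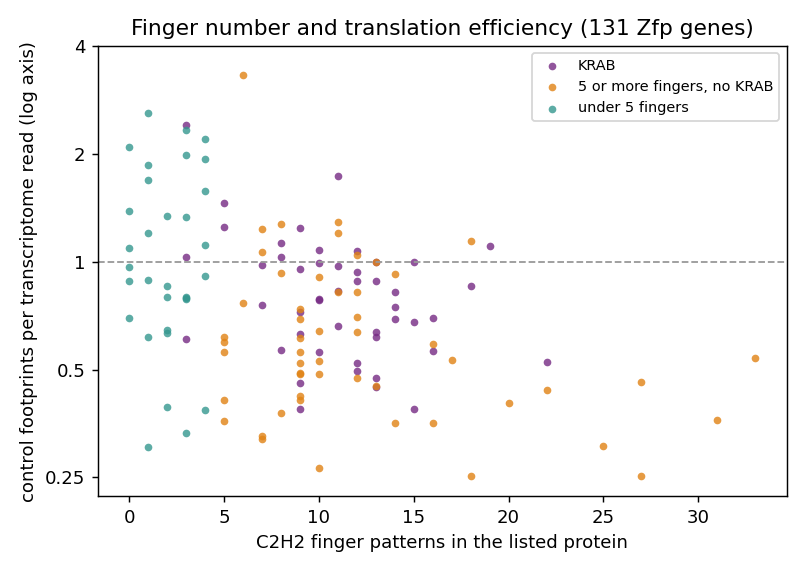
Translation efficiency in control cells (log axis) against the number of C2H2 finger patterns for the 131 genes with a matched sequence, coloured by class, with a dashed line at 1. The points with 5 or more fingers lie mostly below 1, and the class medians are 0.549 for many fingers without KRAB, 0.788 for KRAB and 0.938 for under 5 fingers.

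Across the 131 genes, finger number and translation efficiency had a Spearman rho of -0.352. ORF length had a rho of -0.54 with efficiency over the 133 genes and of -0.544 over the 8265 other coding transcripts with a value. The median ORF was 2026.5 nt for many fingers without KRAB, 1812 nt for KRAB and 1333.5 nt for under 5 fingers. For ORFs of 600 to 1200 nt the median efficiency was 1.22 against 1.32 in the other coding transcripts. It was 0.786 against 1.01 for 1200 to 2000 nt, 0.698 against 0.800 for 2000 to 3000 nt and 0.438 against 0.531 above. The 5 genes up to 600 nt had 0.911 against 1.91. Genes are not independent replicates, and all points share the same libraries.

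All 133 genes lost ORF footprints with DMDA-PatA, and in each of them both drug values lay below both control values. The count is 133 of 133 at an adjusted p under 0.05 (edgeR), on a background where 99.8% of the 12076 ORFs tested were called lower. The control values used here also chose the genes, so nothing is read from this count, nor from the fold inhibition or the counts of the other drugs against control below, which are given as a description. The median fold inhibition was 25.5, with 33.0 and 21.7 in the replicate pairs, against 22.3 for the other coding transcripts past the cutoff, and it ran from 5.73 to 215. KRAB genes had the largest median, 33.4, against 24.9 for other genes with many fingers and 23.6 for those with under 5 fingers.

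Zfp57 had the most negative fitted log2 fold change with DMDA-PatA, although the ratio of means was larger for Zfp979, at 215, and Zfp940, at 189. It had 2384 and 2252 control footprints. DMDA-PatA left 10.1 and 16.2, harringtonine 133 and 74.2, and puromycin 209 and 349. The DMDA-PatA values lay far below those with the other drugs, and no group overlapped the control. The log2 fold change was -7.46 ± 0.60 (SE, n = 2, edgeR adjusted p = 1.61e-32), a 176-fold inhibition. Zfp979 fell by 7.37 on the log2 scale and Zfp940 by 7.36, both from control values under 150 and with at most 2 reads in each DMDA-PatA library.

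The smallest decreases with DMDA-PatA were those of Zfp36, Zfp703 and Zfp593. Zfp36, or tristetraprolin, is an RNA binding protein that triggers the decay of AU-rich mRNAs and is induced as an early response gene. It had 379.6 and 348 control footprints, 35.4 and 91.7 after DMDA-PatA, 328 and 242 after harringtonine and 374 and 405 after puromycin. Its puromycin values lay in the range of the control or above, and its DMDA-PatA values well below. Its log2 fold change was -2.53 for DMDA-PatA (adjusted p = 3.48e-08), -0.35 for harringtonine (adjusted p = 0.413) and 0.10 under puromycin (adjusted p = 0.818). Zfp593 showed a similar order, with a log2 fold change of -2.68, -1.32 and -0.41.

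With harringtonine 130 of 133 genes were called lower, where 94.1% of all ORFs tested were. The median fold inhibition was 9.89, with 8.08 and 13.4 in the replicate pairs, against 8.66 for the other coding transcripts past the cutoff. KRAB genes again had the largest median, 14.4, against 9.49 and 7.22 in the other classes. The largest decreases belonged to Zfp990, at -5.57 on the log2 scale, Zfp654 at -5.51 and Zfp157 at -5.07. Zfp36, Zfp703 and Zfp91 did not pass the test, but when DMDA-PatA and harringtonine libraries were given each other's size factors Zfp91 (-0.75, edgeR adjusted p = 0.00505) and Zfp36 (-0.59, adjusted p = 0.0147) did. Zfp91, an atypical ubiquitin ligase, had 196 and 149.6 footprints in the control libraries and 131 and 108 with harringtonine, a log2 fold change of -0.53 ± 0.42 (SE, n = 2, adjusted p = 0.212).

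With puromycin 127 genes were called lower, where 91.4% of all ORFs tested were, and the median fold inhibition was 5.44, with 5.68 and 4.53 in the replicate pairs. The other coding transcripts past the cutoff had a median of 6.33. Zfp654 fell most: from 255.8 and 220.3 footprints it dropped to 2.07 and 1.24, a value of 1 read in each library, and its log2 fold change was -7.15 ± 0.74 (SE, n = 2, adjusted p = 7.80e-20). The next were Zfp318 and Zfp292, both with long ORFs of 6711 and 8094 nt, at -5.24 and -4.62. Zfp146, Zfp260, Zfp275, Zfp36 and Zfp593 did not pass the test. Fitted with the control and puromycin libraries only, Zfp146 (-0.64, edgeR adjusted p = 0.00421) and Zfp260 (-0.49, adjusted p = 0.0332) passed as lower, and with the exchanged size factors Zfp146 did (adjusted p = 0.0201).

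With puromycin 1 of the 133 genes (0.75%) was called higher, where 0.20% of all ORFs tested were. This was Zfp703, a transcriptional co-repressor with a listed ORF of only 381 nt. It had 106 and 95.2 footprints in the control libraries, 130 and 80.5 with harringtonine, and 299.9 and 231 with puromycin. The puromycin values lay above all others, while the harringtonine values spanned the control. The log2 fold change with puromycin was 1.40 ± 0.43 (SE, n = 2, adjusted p = 0.00156), and 1.32 without control replicate 2 (adjusted p = 0.0555). As its control value is the lowest that passes the cutoff, this difference is not independent of the choice.

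**Figure D3:**
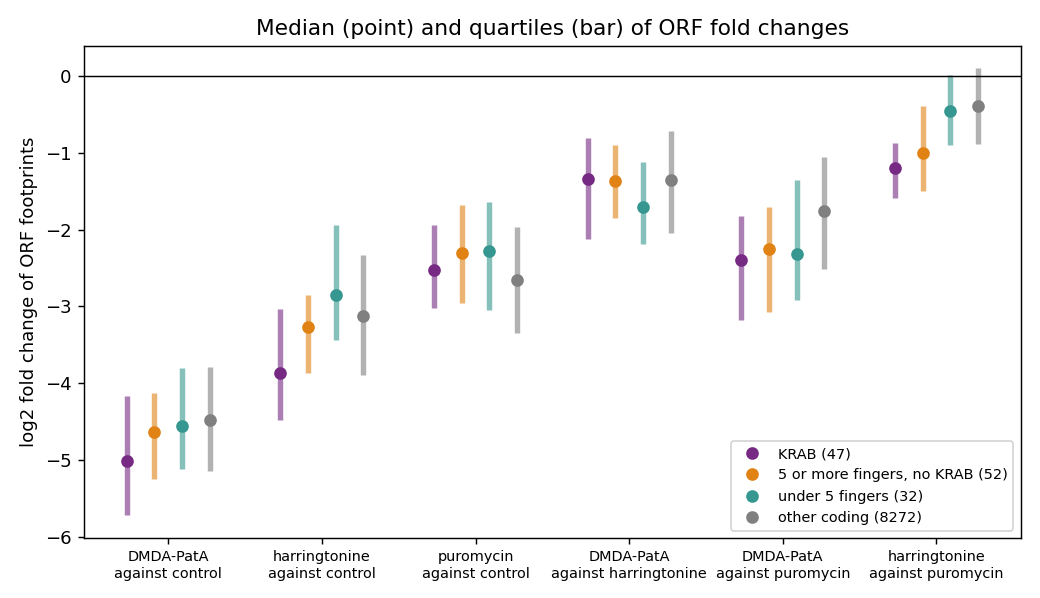
Median (point) and quartiles (bar) of the log2 fold change of ORF footprints for the classes of Zfp genes and for the 8272 other coding transcripts past the cutoff, in the 6 comparisons. The classes with many fingers differ most from the other coding transcripts between harringtonine and puromycin, with medians of -1.20 and -1.01 against -0.39.

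The genes were also grouped by role. Their counts stand on the same background of 99.8%, 94.1% and 91.4% of all ORFs called lower for DMDA-PatA, harringtonine and puromycin, and say nothing particular about the groups. The 6 stem cell regulators Zfp281, Zfp296, Zfp143, Zfp217, Zfp462 and Zfp148 were called lower with each of the 3 drugs, with median log2 fold changes of -4.73 (DMDA-PatA), -3.88 (harringtonine) and -3.18 (puromycin). Zfp217 moved furthest among them with DMDA-PatA, from 1734 and 1411 footprints to 25.3 and 26.8. All 3 repressors of imprinted genes and retroelements past the cutoff, Zfp57, Zfp568 and Zfp809, were called lower with each drug, with medians of -5.89, -4.49 and -2.57. Of the 9 genes linked to RNA or ribosomes, all were called lower after DMDA-PatA, 8 after harringtonine and 7 after puromycin. Among these, Zfp598, the ligase that marks collided ribosomes, fell by 4.44, 3.72 and 3.94 on the log2 scale.

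The comparisons between drugs contrast drug libraries only, although the control libraries share in the estimate of the spread. With DMDA-PatA 76 of 133 genes (57.1%) were called lower than with harringtonine, close to the 53.0% of all ORFs tested. Against puromycin 112 genes (84.2%) were called lower, where 67.9% of all ORFs and 74.7% of the other coding transcripts past the cutoff were. The median log2 fold change against puromycin was -2.32, against -1.76 for the other coding transcripts past the cutoff. The count against harringtonine was 45 without DMDA-PatA replicate 1 and 50 without harringtonine replicate 1, and 33.8% of the genes were called when only these conditions were fitted. Of the 133 genes 1 (0.75%) was called higher with DMDA-PatA than with harringtonine, near the 0.41% of all ORFs tested. This was Zfp87, a KRAB gene. It had 14.5 and 18.7 against 7.10 and 3.50, from 157 and 116 in the control libraries. The log2 fold change was 1.68 ± 0.61 (SE, n = 2, adjusted p = 0.0142).

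Harringtonine was called lower than puromycin on 36 genes (27.1%). Of all ORFs tested 10.1% were called lower, and of the other coding transcripts past the cutoff 11.2%. No gene was called higher, where 1.06% of all ORFs tested and 1.20% of those other transcripts were, so nothing is read from this. The fitted log2 fold changes ran up to 1.64. The median log2 fold change was -0.97 against -0.39 in those other transcripts. Called were 16 of 47 KRAB genes (34.04%), 16 of 52 genes with many fingers and no KRAB (30.8%) and 4 of 32 genes with under 5 fingers (12.5%). In the libraries themselves, both harringtonine values lay below both puromycin values for 91 genes (68.4%), against 42.1% of all coding transcripts past the cutoff. The count rests on the spread between replicates: it was 81 without harringtonine replicate 1, 19 without harringtonine replicate 2, 10 without puromycin replicate 1, 9 without puromycin replicate 2 and 12 when only these conditions were fitted. It also rests on the scaling: when DMDA-PatA and harringtonine libraries were given each other's size factors, 68.4% of the genes were called, and with TMM scaling 34.6%. The share of all ORFs called was not computed for these alternatives. They therefore do not show whether the genes still differed from the other transcripts.

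The largest of these differences was that of Zfp260, a gene with 12 fingers and no KRAB. It had 27.4 and 12.6 footprints with harringtonine and 145 and 158 with puromycin, against 252 and 176 in the control. The log2 fold change between the drugs was -2.95 ± 0.49 (SE, n = 2, adjusted p = 6.87e-07). Zfp146, made of 10 fingers, followed with -2.62 ± 0.47 (adjusted p = 7.69e-06). Zfp568, a KRAB repressor needed in the early embryo, had 76.1 and 36.4 against 318 and 288, a difference of -2.44 ± 0.47 (adjusted p = 4.58e-05).

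The difference between harringtonine and puromycin was also read within classes of length. Of the genes with an ORF of 1200 to 2000 nt, 18 of 61 (29.5%) were called lower with harringtonine, against 11.01% of the other coding transcripts of that length, and for 2000 to 3000 nt 11 of 30 (36.7%) against 9.16%. The median log2 fold change was -1.04 against -0.40 in the former class and -1.09 against -0.42 in the latter. For 600 to 1200 nt 3 of 16 genes (18.8%) were called against 13.9%, and the medians lay the other way, at -0.42 against -0.46. Above 3000 nt 3 of 21 (14.3%) were called against 5.72%, with medians of -0.69 and -0.29. By 5′ UTR length, 2 of 24 genes (8.33%) with up to 100 nt were called, against 5.08% of the others. For 100 to 300 nt 18 of 65 genes (27.7%) were called against 10.9%, and above 300 nt 13 of 38 (34.2%) against 20.5%.

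**Figure D4:**
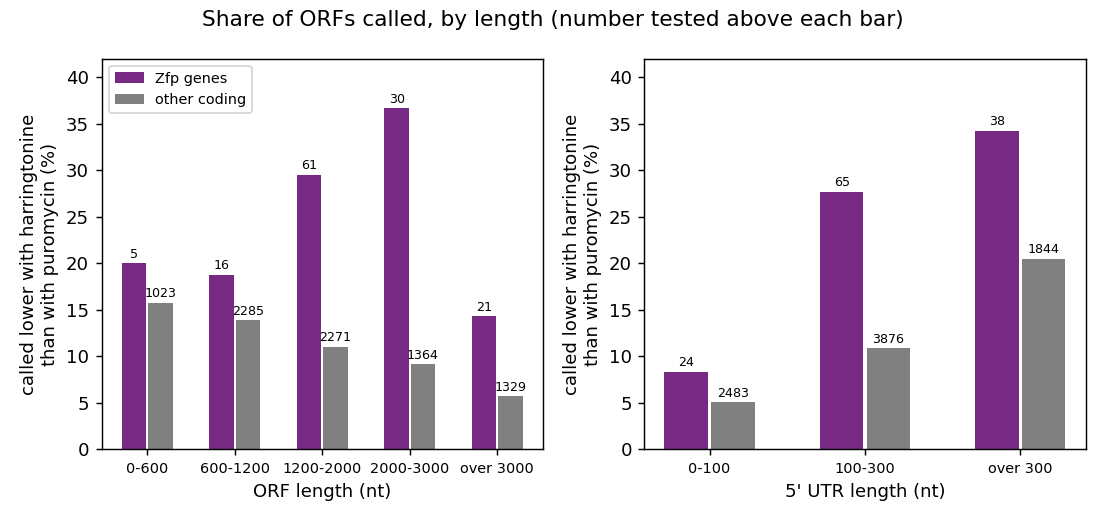
Share of ORFs called lower with harringtonine than with puromycin by ORF length (left) and 5′ UTR length (right), for Zfp genes and the other coding transcripts past the cutoff, with the number tested above each bar. The Zfp bar is the higher one in each class, from 20.0% against 15.7% for ORFs up to 600 nt, which are only 5 Zfp genes, to 36.7% against 9.16% for ORFs of 2000 to 3000 nt.

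When the libraries were scaled to each other by their own coding reads (TMM) instead of spike-in reads, the fits ask which genes fell more or less than coding transcripts at large. With DMDA-PatA 50 genes (37.6%) were called relatively lower and 17 (12.8%) relatively higher, where 23.6% and 18.6% of all ORFs were, and 32.3% and 19.4% of the other coding transcripts past the cutoff. With harringtonine 57 (42.9%) were relatively lower and 19 (14.3%) relatively higher, where 29.9% and 26.2% of all ORFs were, and 39.05% and 25.64% of the other coding transcripts past the cutoff, close to the share of relatively lower genes. With puromycin the balance was the other way, with 29 (21.8%) relatively lower and 41 (30.8%) relatively higher, where 24.9% and 23.9% of all ORFs were, and 33.92% and 23.25% of the other coding transcripts past the cutoff. Without DMDA-PatA replicate 2 the DMDA-PatA counts were 25 and 9, and without control replicate 2 the puromycin count of relatively higher genes was 24.

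The largest relative losses with DMDA-PatA were those of Zfp940 and Zfp979, both at -3.27 on the log2 scale, with Zfp57 next at -3.23. With harringtonine they were Zfp990 at -2.68 and Zfp654 at -2.63, and with puromycin Zfp654 at -4.73 and Zfp318 at -2.78. Relative gains were led by Zfp36 and Zfp593 with DMDA-PatA, at 1.65 and 1.54. Zfp703 and Zfp36 led with harringtonine, at 2.93 and 2.55, and with puromycin, at 3.86 and 2.57. All 6 stem cell regulators were called relatively lower with harringtonine, and 3 with DMDA-PatA and 4 with puromycin. Of the other coding transcripts past the cutoff 39.05%, 32.3% and 33.92% were, in the same order. The group is small and had a median of 478 control footprints per kb, against 151 for all 133 genes. What this level does to the calls was not tested.

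The 5′ UTR values were not part of the rule. The share given here, and the comparison with the ORF below, also contain the control ORF value, which was. They are therefore a description. Of the 133 genes 127 had a listed 5′ UTR, and the median share of their control footprints on it, out of those on 5′ UTR and ORF, was 3.18%, with 3.03% and 3.16% in the replicates. The other coding transcripts past the cutoff had 1.33%. KRAB genes had 4.37%, other genes with many fingers 5.23% and genes with under 5 fingers 1.376%. The 5′ UTRs were longer too, with a median of 201 nt against 158 nt, and at least 1 upstream ATG was present in 64 of 110 matched 5′ UTRs (58.2%) against 48.2% of the others. Within classes of 5′ UTR length the control shares lay closer together. They were 0% in both groups up to 100 nt, 2.50% against 1.85% for 100 to 300 nt and 9.40% against 8.66% above. In other zinc finger families past the cutoff the median share ran from 1.59% (Zbtb) to 5.25% (Zscan and Zkscan). With the drugs the median share rose to 46.1% (DMDA-PatA), 42.8% (harringtonine) and 20.9% (puromycin), against 26.9%, 21.8% and 8.80% for the others.

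Among the 42 genes with at least 20 control reads on the 5′ UTR in both libraries, Zfp146, Zfp664 and Zfp260 had the highest ratio of 5′ UTR to ORF footprints. Their upstream start sites are shown because the 5′ UTR carried as many footprints as the ORF or nearly so. Zfp146 had 6 upstream ATGs on 682 nt, of which 5 open a frame that closes within the 5′ UTR, Zfp664 had 11 on 1005 nt, all closed, and Zfp260 had 9 on 1060 nt, of which 7 are closed. The first upstream ATG and the annotated start are printed 5′ to 3′ with 9 bases on each side and the ATG in capitals (GENCODE M21 transcripts, GRCm38). The sites lie at chr7:30163132-30163152 and chr7:30162604-30162624 on the minus strand for Zfp146, at chr5:124863392-124863412 and chr5:124885535-124885555 on the plus strand for Zfp664, and at chr7:30094795-30094815 and chr7:30104668-30104688 on the plus strand for Zfp260. The upstream sites are in the 5′ UTR, and each annotated start joins 5′ UTR and coding sequence.
Zfp146 upstream: aacagttgtATGggaacacat
Zfp146 start: tccactcagATGtcacagctc
Zfp664 upstream: gcccaggtgATGaggacctcc
Zfp664 start: ggaaaaaaaATGatctacaag
Zfp260 upstream: gtggccaagATGgcgtcctct
Zfp260 start: cagatcagaATGttggagagc
The frames opened by these first upstream ATGs were 15, 25 and 44 codons long and closed before the annotated start. The files give region sums, so that footprints cannot be placed on any of these codons here.

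Zfp146 had 505 and 378 footprints on the 5′ UTR in the control libraries against 279 and 232 on the ORF, a share of 63.3%. With DMDA-PatA the 5′ UTR kept 118 and 168 while the ORF kept 10.7 and 4.87. With puromycin the 5′ UTR had 515 and 536 and the ORF 169.6 and 159, and neither change passed the test in the fit of all conditions. The 5′ UTR fell with DMDA-PatA by 1.63 on the log2 scale (adjusted p = 0.00141), and the ORF by 4.98. Relative to the ORF the 5′ UTR rose by 3.34 on the log2 scale (adjusted p = 3.74e-06).

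In Zfp664 the 5′ UTR had 252 and 297 footprints in the control libraries, 26.5 and 26.8 after DMDA-PatA, 269.9 and 192 after harringtonine and 273 and 261 after puromycin. Only the DMDA-PatA values left the control range by a wide margin, where it fell by 3.36 on the log2 scale (adjusted p = 9.12e-10), the largest fall on a 5′ UTR among these genes. The ORF fell with all 3 drugs, from 259 and 198 to 29.0 and 26.1 with puromycin. Zfp260 lay between them, with 215 and 141 on the 5′ UTR in the control libraries and 55.6 and 63.3 with DMDA-PatA.

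**Figure D5:**
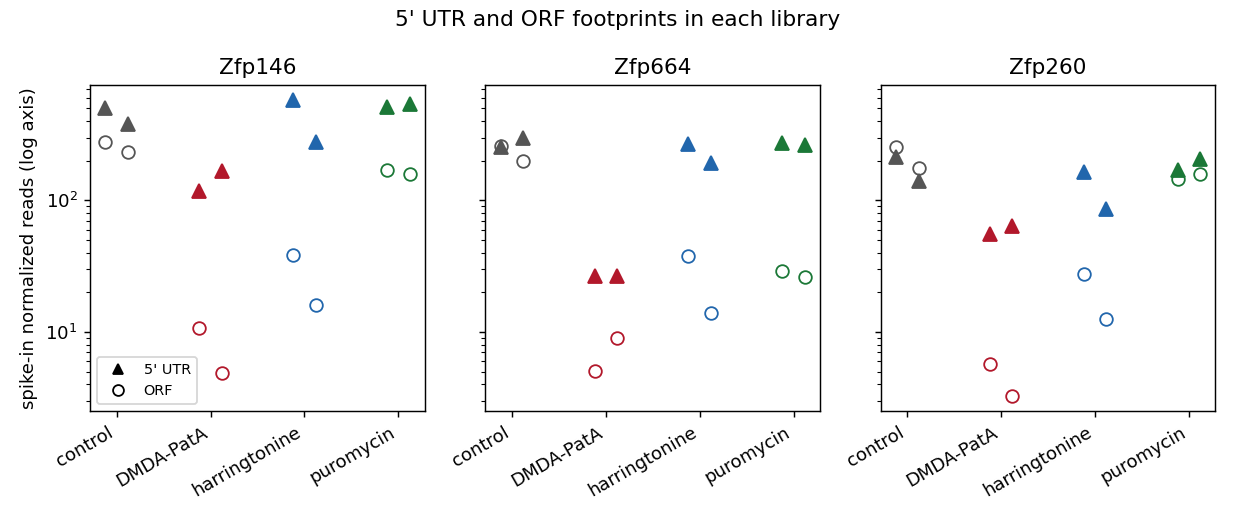
Normalized footprints on the 5′ UTR (triangles) and the ORF (circles) of Zfp146, Zfp664 and Zfp260 in each of the 8 ribosome profiling libraries (log axis, replicates side by side). With DMDA-PatA and harringtonine the ORF values lie below the 5′ UTR values in all 3 genes, as they already do in both control libraries of Zfp146 and 1 of Zfp664, while with puromycin the ORF has 169.6 and 159 in Zfp146 and 145 and 158 in Zfp260 but 29.0 and 26.1 in Zfp664.

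Over the 97 genes with enough reads to be tested on the 5′ UTR, the drugs differed in direction. With DMDA-PatA 26 genes (26.8%) were called lower and 12 (12.4%) higher, where 28.7% and 14.8% of the 6533 5′ UTRs tested were. With harringtonine 2 genes (2.06%), Zfp141 and Zfp652, were lower and 35 (36.1%) higher, where 5.11% and 35.2% were. These shares lie near the background. With puromycin no gene was called by edgeR in either direction, 25 had an unadjusted p under 0.05, DESeq2 called none of the 48 to which it gave an adjusted p, and 0.352% and 0.551% of all 5′ UTRs were called lower and higher. The median log2 fold change with puromycin was 0.48, against 0.09 for the other coding transcripts past the cutoff.

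The counts on the 5′ UTR depended on single libraries. Without control replicate 1 the DMDA-PatA counts were 10 lower and 8 higher, without control replicate 2 there were 6 higher, and without DMDA-PatA replicate 1 15 lower. The harringtonine count of 35 was 22 without control replicate 1 and 14 without control replicate 2. With TMM scaling the harringtonine split was 17.5% lower and 19.6% higher. The share of all 5′ UTRs called was not computed for these alternatives.

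The calls on the 5′ UTR with DMDA-PatA are given by class, with no test between classes. Of 35 KRAB genes tested 9 (25.7%) were called higher and 7 (20%) lower, with a median log2 fold change of 0.24. Of 40 other genes with many fingers 1 (2.5%) was higher and 14 (35%) lower, with a median of -0.87. Over all 5′ UTRs tested 14.8% were called higher and 28.7% lower. The read filter described below let in genes with almost no control reads, so no difference between classes is read from these values. Zfp87 gained 5′ UTR footprints, from 1.18 and 0 in the control libraries to 11.99 and 18.7 with DMDA-PatA and 37.5 and 27.3 with harringtonine. Zfp961 gained them with DMDA-PatA, with 11.99 and 9.74, and had 2.03 and 0 with harringtonine. Zfp568 lost them with DMDA-PatA, from 449 and 356 to 39.1 and 93.3, and had 681 and 375 with harringtonine and 579 and 637 with puromycin. A 5′ UTR was tested if it reached 10 reads in 2 or more footprint libraries. With almost no control reads, that of Zfp87 passed only through drug libraries, so the direction of its change was set by this filter. Calls of other genes with few control reads, that of Zfp961 among them, are likewise a description only.

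Set against the ORF of the same gene in the same library, where the spike-in scaling cancels, the 5′ UTR was called higher in 97 of 97 genes after DMDA-PatA. It was called higher in 94 after harringtonine and in 85 after puromycin. The background was 93.7%, 95.6% and 78.5% of the 6391 transcripts tested. The control ORF reads in this comparison also chose the genes, so nothing is read from these counts. The median rise on the log2 scale was 4.82, 4.28 and 2.88, against 4.58, 4.16 and 2.68 for the other coding transcripts past the cutoff. KRAB genes had the largest median with DMDA-PatA, 5.58, against 4.03 for other genes with many fingers, but the same read filter enters these medians. The largest rises were those of Zfp37 with DMDA-PatA, 9.24, and Zfp87 with harringtonine, 10.4, both from at most 1 control read on the 5′ UTR, so that their size depends on the prior count. With so few control reads both passed the read filter only through drug libraries, which set the direction of these rises. Zfp652, Zfp91 and Zfp961 did not pass with harringtonine, and Zfp146 and Zfp260 were among the 12 that did not with puromycin.

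The partners of KRAB proteins were read from a list of 16 co-repressor genes. All 16 were called lower on the ORF with each drug, where 99.8%, 94.1% and 91.4% of all ORFs were, with median log2 fold changes of -5.12, -3.56 and -3.85 (in the order DMDA-PatA, harringtonine, puromycin), so that with puromycin they lay below the -2.53 of the KRAB genes. Trim28 itself had 46175 and 42215 control footprints and fell by 7.08 on the log2 scale with DMDA-PatA. The median translation efficiency of the 16 was 1.54, against 0.788 for the KRAB genes. The 2 lists also differed in median ORF length, 2538 nt against 1812 nt, and in median control footprints per kb, 986 against 122. Over 5% of the ORF windows were repeated in 6 of the 16 and in 14 of the 47 KRAB genes. What these differences do to the contrasts was not tested.

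Other zinc finger families were read for the difference between harringtonine and puromycin. Of the genes past the cutoff, 7 of 21 Zbtb genes (33.3%) and 6 of 13 Klf genes (46.2%) were called lower with harringtonine, where 10.1% of all ORFs and 11.2% of the other coding transcripts past the cutoff were, with medians of -0.94 and -1.10 on the log2 scale. Of 11 Zscan and Zkscan genes 1 was called, and of 11 Zfp genes with a letter after the number 2, with medians of -0.68 and -0.46. The CCCH and CCHC type genes Zc3h and Zcchc, which bind RNA, had 1 of 20 and a median of -0.13. These families are small, no test between them was made, and the same calls for the Zfp genes ran from 6.77% to 60.9% when 1 library was left out.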

How the data were processed

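CGR8 cells were profiled in 10 libraries, 8 of footprints and 2 of the transcriptome. The authors aligned SOLiD reads to mm10, left out reads with several matches, counted them per region of 1 transcript per gene, and divided footprint counts by size factors from spike-in reads. The deposited values are this normalized signal. In each library 100% of the values divided into whole reads (tolerance 0.01), so reads were recovered and the main test was a count test on them.

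Genes were named from GENCODE M21. ORFs that reached 10 reads in 2 or more of the 8 footprint libraries were fitted across 4 conditions (12076 ORFs) with edgeR 4.0.16 (quasi-likelihood test, Benjamini-Hochberg adjustment, threshold 0.05, R 4.3.3) on the authors' size factors, and again with TMM factors, on the 5′ UTR, and on 5′ UTR against ORF with library as a term. Fold inhibition is the mean control value divided by the mean drug value. Fingers were counted as C2H2 patterns and KRAB by a sequence pattern, both approximate. DESeq2 1.42.0 and limma 3.58.1 (log2 of value + 1 or + 5) were alternatives. The fits were tested on simulated counts.

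The members and lists were chosen with earlier results of these data known. Named genes were those of highest density, those just around the cutoff, the extremes per drug and scale, the highest 5′ UTR ratios and the role groups, 40 in all. Zfp646, Zfp459, Zfp275, Zfp141 and Zfp652 were named after their values were seen. Start and end positions are those of the listed transcript.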

Additional observations from a re-analysis of the deposited data

How the results depend on the processing

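Of 270 alternatives to 26 counts and medians, 224 stayed within 1.5 times the count or 1 SD of the replicate pairs and 46 did not. The values below are percent of the tested genes called unless stated, and the cause of a change was not tested. For most alternatives the share of all features called was not computed, so they do not show how far the genes stayed apart from it.

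With TMM scaling the ORF was called lower in 37.6% (DMDA-PatA), 42.9% (harringtonine) and 21.8% (puromycin) against control, and for DMDA-PatA in 13.5% against harringtonine and 33.8% against puromycin. On the 5′ UTR, TMM scaling gave 20.6% higher for DMDA-PatA, 17.5% lower and 19.6% higher for harringtonine, and 1.03% lower and 7.22% higher for puromycin. When DMDA-PatA and harringtonine libraries were given each other's factors, 68.4% were lower with harringtonine than with puromycin, and on the 5′ UTR 4.12% were lower with harringtonine and 2.06% higher with puromycin. Fitting 2 conditions only gave 33.8% for DMDA-PatA below harringtonine and 9.02% for harringtonine below puromycin. DESeq2 called 7.22% higher on the 5′ UTR with DMDA-PatA. A control minimum of 200 gave 6.98% relatively higher with DMDA-PatA and the same with harringtonine. At equal total reads the median fold inhibition was 1.24 (DMDA-PatA), 1.51 (harringtonine) and 1.01 (puromycin). With a control minimum of 50 or 200, the median translation efficiency was 0.674 or 0.698 and the median 5′ UTR share 4.15% or 2.49%.

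Leaving out 1 library gave 6.77% to 60.9% for harringtonine below puromycin and 33.8% to 82.0% for DMDA-PatA below harringtonine. On the 5′ UTR it gave 10.3% to 29.9% lower and 6.19% to 11.3% higher with DMDA-PatA, and 1.03% to 2.06% lower and 14.4% to 34.02% higher with harringtonine. Relative to all coding transcripts it gave 18.8% to 30.8% lower and 6.77% to 10.5% higher with DMDA-PatA, and 18.0% to 26.3% higher with puromycin. The median fold inhibition ranged from 21.7 to 33.0 (DMDA-PatA), 8.08 to 13.4 (harringtonine) and 4.53 to 5.68 (puromycin), the median translation efficiency from 0.725 to 0.745 and the median 5′ UTR share from 3.03% to 3.16%.

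The log2 fold change of Zfp703 with harringtonine, 0.06 and not called, was -0.21 with those factors exchanged, -0.02 without control replicate 2, and between -0.32 and 0.37 over the libraries left out. Same-numbered libraries deviated together with correlations of -0.02 to 0.10 over 8405 ORFs. Low read numbers in the drug libraries limit such correlations, so whether the numbers pair the samples cannot be decided here. The replicate block gave 18.8% for harringtonine below puromycin and moved no count by over 1.5 times. The median gene had 18 and 19 reads with DMDA-PatA.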
